A study of Mus musculus with 2 samples.

Results

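The genes described here encode the nuclear pore complex and the receptors that carry cargo through it. They were taken by gene symbol: the numbered nucleoporins (Nup), importins alpha and beta (Kpna, Kpnb, Ipo), transportins (Tnpo), exportins (Xpo), the mRNA export factors Nxf and Nxt, the small GTPase Ran, its numbered binding proteins (Ranbp) and Rangap1. Of 12393 mouse genes with a probe set naming them alone, 49 met this rule, on 94 probe sets. The study measured induced pluripotent stem cells (iPSCs), which are body cells returned to a pluripotent state, grown in serum medium for mouse embryonic stem cells with 2i, a pair of kinase inhibitors. One group was labelled hybridized and the other live, with 1 RNA sample and 1 expression array each. Both shared the cell type and the medium; the partner or agent of the hybridization, the strain or clone and the passage are not given in the labels. The comparison asks how far the transcript profile of hybridized cells matched that of live cells.

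The nuclear pore is a ring of nucleoporins set into the nuclear envelope. Outer and inner rings form its scaffold, nucleoporins rich in phenylalanine-glycine repeats fill the channel, and filaments and a basket extend to either side. Importins and exportins carry proteins and RNAs through the channel, and Ran, held with GTP in the nucleus and with GDP in the cytoplasm, sets the direction of transport. In embryonic stem cells importin alpha members are known for bringing pluripotency factors such as Oct4 into the nucleus. Most messenger RNA leaves by another route, the Nxf1 and Nxt1 pair, which does not depend directly on Ran.

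Short promoter stretches show what several members share in sequence. An NRF1-like motif, the letters GCGCATGC on either strand, lay in the promoter window (250 bases before to 50 after the start, RefSeq, GRCm38.p6) of 6 of the 37 members at the level that have such a window, or 16.2%, against 7.18% of 5999 genes at the level with a window. The level is a mean log2 value of 5 over both arrays. The lines below give 30 bases around the match in each of the 6, on the gene's strand, with the match in capitals; they lie at chr10:117792752-117792781 (minus strand), chr15:84923250-84923279 (plus), chr7:44816057-44816086 (plus), chr5:129019940-129019969 (plus), chr16:18248815-18248844 (minus) and chr17:46202715-46202744 (plus), in the order shown.
Nup107: agacgaaagtcGCGCATGCGCcgagcggga
Nup50: agggcgggcttGCGCATGCGCcgcgcgacc
Nup62: aataagacaatGCGCATGCGCaacaggttg
Ran: tcccgcagccaGCGCATGCGCgtggcagcc
Ranbp1: ggcgcggccggGCATGCGCcgcgggcgttt
Xpo5: cacttccgcgcGCGCATGCGCcgtggcggc

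In all but Ranbp1 the motif and its reverse complement overlapped in the same letters. These 6 genes did not move alike: their differences, hybridized minus live on the log2 scale, ran from -0.73 for Nup107 to 0.86 for Xpo5, and 4 were above 0. A match describes the letters only. The other motifs searched, on both strands, were the ETS-like letters CCGGAAG, the GC box GGGCGG, the CCAAT box, the E-box CACGTG, the TATA box TATAAA and the YY1-like letters AAGATGGC. The GC box was present in 75.7% of these members and 72.5% of genes at the level, CCAAT in 48.6% and 44.1%, the ETS-like letters in 18.9% and 23.1%, the E-box in 21.6% and 12.7%, TATAAA in 13.5% and 8.17%, and the YY1-like letters in 8.11% and 6.22%.

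Each value below is the deposited log2 value of a gene's brightest probe set, the one with the highest mean of both arrays. With 1 array per group no test is possible and no value has a replicate error, so each difference describes these 2 arrays alone. Of the 49 members, 46 reached the level, and the same number did so when 5 was asked of each array. The other 3 were Nxf2 (2.25 hybridized, 2.12 live) and Nxf7 (2.22 and 2.38), relatives of Nxf1, and the transportin Tnpo2 (4.07 on both arrays). Values so low have no order, and no detection calls were used here.

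Within 1.5-fold lay 26 of 46 members (56.5%), near the 52.7% of all genes at the level. This share was not compared at like level. The hybridized sample was at least 2-fold above the live one for 2 of the 46 members and for 8.43% of 7262 genes at the level, and at least 2-fold below it for 5 members and 15.4% of genes. Together that is 15.2% of the members against 23.8% of all genes. Members had higher values than most genes, with a median level of 11.09 against 9.20, and bright genes differ less. Among genes with a mean of 10 or more, 4 of 36 members (11.1%) and 10.9% of 2752 genes were 2-fold apart, so the members' share was near the background. The median difference was 0.07 over the members and -0.17 over all genes, with 60.9% of members and 41.0% of all genes above 0. The median of all genes varied with level. It was -0.51 at a mean of 5 to under 7 and -0.22 at 7 to under 9. It was -0.07 at 9 to under 11, -0.05 at 11 to under 12 and -0.09 at 12 to under 15. In the ranges from 7 up, the members' medians were -0.21, -0.49, 0.17 and 0.28. The shares above 0 were not compared at like level. The signs of the differences also hang on the scaling. Centring on the median of the 18 spiked hybridization control probe sets adds 0.80 to every difference. Those 18 themselves differed by -1.22 to -0.15, so this shift is the median of a wide range. With it, 17 members were 2-fold higher and 1 lower, against 31.8% and 2.84% of all genes.

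**Figure D1:**
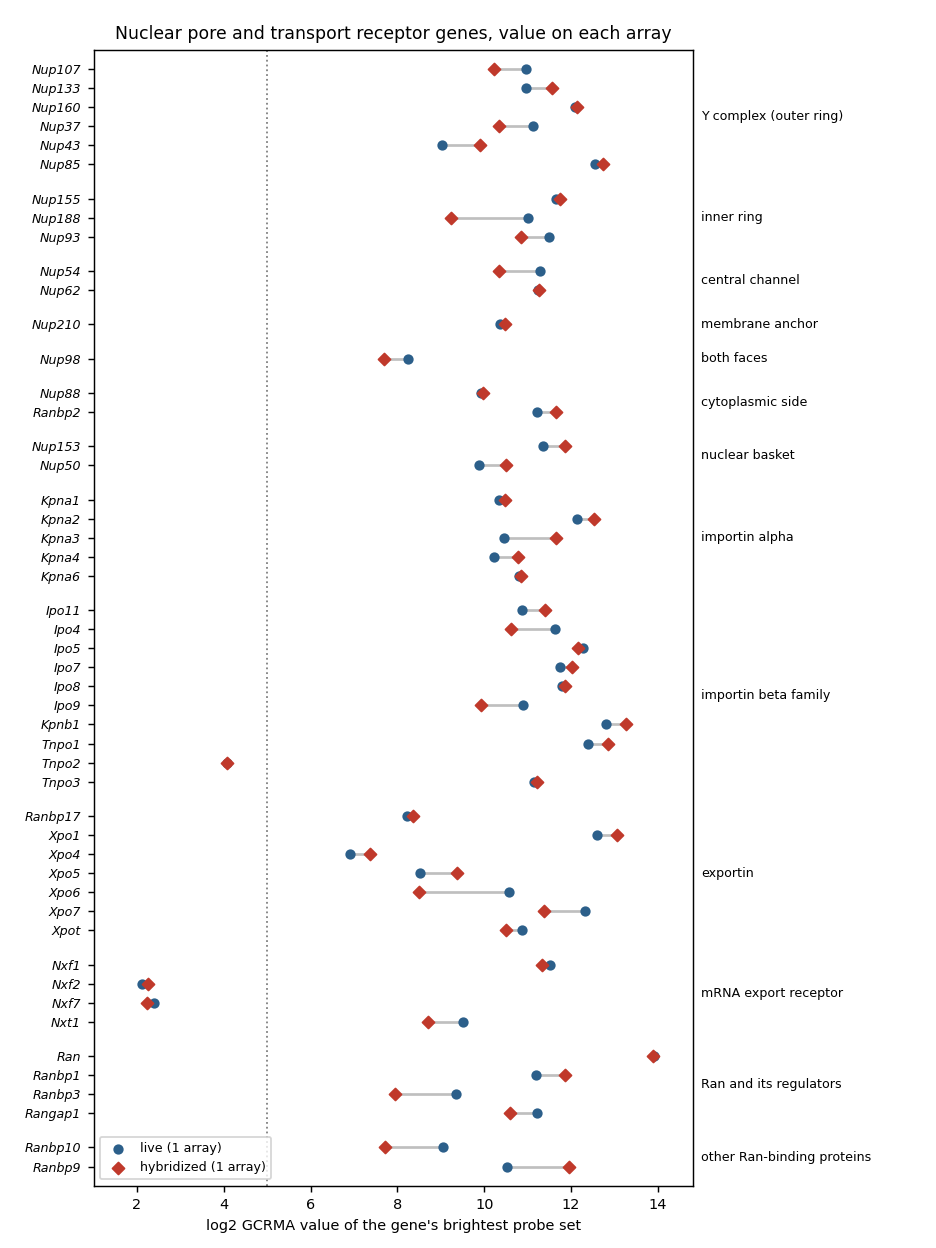
Log2 value of the brightest probe set (x axis) of each of the 49 genes, grouped by role, with a red diamond for the hybridized array, a blue circle for the live array and a grey line for the gap; the dotted line marks the level of 5. For most genes the markers lie close together; the widest gap is that of Xpo6 (8.50 and 10.58), and Nxf2, Nxf7 and Tnpo2 lie left of the line.

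The outer ring, or Y complex, had no member 2-fold apart among 6, with a median difference of 0.11. Over all genes at the level, 23.8% passed this limit in one direction or the other. In bright genes, those averaging at least 10, the share fell to 10.9%. With only 6 genes, the lack of a 2-fold gap marks nothing particular to the Y complex. Nup160 read 12.14 in the hybridized and 12.10 in the live sample, and Nup85 12.73 and 12.56. Both are scaffold subunits of the Y, and their values almost coincided. Nup43, a peripheral subunit, was the highest of the 6 at 9.90 against 9.03 on its brightest probe set. Its second read 9.04 against 8.70, a difference of 0.34. The lowest was Nup37, another peripheral subunit, at 10.35 against 11.12. Nup107, which joins Nup133 in the stem of the Y, differed by -0.73 on its only probe set. Nup133 read 11.56 against 10.96, the other way. The Y complex thus held differences in both directions. On the brightest probe sets all but Nup107 and Nup37 lay above 0 as deposited. Those 2 also turned to 0.07 and 0.03 when centred on the hybridization controls. The signs depended on the probe set too, since the second ones of Nup85 and Nup133 differed by -0.15 and -0.27.

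The inner ring held the nucleoporin furthest from equality. Nup188, a large scaffold protein, read 9.23 in the hybridized and 11.01 in the live sample, a 3.43-fold lower value on a single probe set. Nup93, the hub to which inner ring partners bind, read 10.85 against 11.50. Nup155, which links the ring to the membrane side, read 11.74 against 11.65, and its second probe set 10.30 against 10.20. Within this ring, then, Nup155 was level on both of its probe sets while Nup188 was lower. Under the control centring Nup188 differed by -0.98, just short of 2-fold. Upstream of Nup188 only 52 bases lie outside every gene span, since the divergent gene Dolk starts on the other side (chr2:30286355-30286406, plus strand, GRCm38.p6). The stretch is shown because it is the whole gap between both genes; the capitals mark an E-box.
Nup188: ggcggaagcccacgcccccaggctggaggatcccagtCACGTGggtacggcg

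Channel, basket and filament nucleoporins stayed under 2-fold on their brightest probe sets. So did most genes at the level, and with so few nucleoporins this marks nothing particular to them. Nup62, the channel protein rich in phenylalanine-glycine repeats, read 11.27 against 11.24, while its next probe sets differed by -0.66 and -0.71. Its partner Nup54 read 10.35 against 11.28 on an _x_at probe set, a suffix that marks probes shared with other genes, but 10.15 against 10.08 on one without it. For both channel genes, then, the size of the difference changed with the probe set. The basket proteins Nup153 (11.87 against 11.35) and Nup50 (10.51 against 9.88), a soluble cofactor of importin-mediated import, were 0.52 and 0.63 higher. Further probe sets of Nup50 differed by 0.26 and -0.44. On the cytoplasmic side, Nup88 read 9.98 against 9.92. Ranbp2, the large filament protein also called Nup358, read 11.65 against 11.22, and its second probe set was 2.45-fold higher at 11.56 against 10.27. The membrane-spanning Nup210 read 10.47 against 10.37. Nup98, found on both faces of the pore and known for its repeats that bind transport receptors, read 7.70 against 8.24 on its only probe set.

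The importin alpha genes, whose proteins recognise the classical nuclear localization signal, lay above 0 on all 5 brightest probe sets. Their median difference was 0.39, against -0.17 over all genes, of which 41.0% were above 0. The -0.17 includes many dimmer genes. At the levels of these 5, the median of all genes was nearer to equality. It was -0.07 at a mean of 9 to under 11, -0.05 at 11 to under 12 and -0.09 at 12 to under 15. Kpna3 was one of the members at least 2-fold higher, at 11.65 against 10.46; its other probe sets were 0.82 and 0.37 higher, so all 3 shared a direction but only the brightest passed 2-fold. Averaged over them the difference was 0.79. Kpna2, the importin alpha abundant in embryonic stem cells, read 12.53 against 12.14 on 1 probe set. Kpna4, closest to Kpna3 in sequence, read 10.78 against 10.22. Kpna1 and Kpna6, of another branch of the family, were near equality at 10.47 against 10.35 and 10.85 against 10.79. The other 4 probe sets of Kpna1 differed by 0.22, 1.45, -0.58 and -0.87, a spread wider than any gap between importin alpha genes. The second probe set of Kpna6 differed by -0.72, and averaging probe sets put Kpna6 below 0. Loess and quantile normalization left the 5 genes above 0. The remaining settings could not turn a sign. Both centrings add to every difference, and leaving out probe sets by suffix kept the same brightest ones.

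Among importin beta and its relatives, which carry cargo directly or through importin alpha, 6 of 9 members were above 0. The median was 0.07, and 1 member was 2-fold lower. Of all genes at the level, 41.0% were above 0 and 15.4% were 2-fold lower. These shares were not compared at like level, and over 9 genes the counts mark nothing particular to this family. Ipo4, an importer of histones among other cargo, read 10.61 against 11.63, and its second probe set differed by -0.46. Ipo9, which also imports histones, read 9.93 against 10.90, just under 2-fold. Ipo11 was the highest at 11.39 against 10.87. Ipo5 (12.16 against 12.27), Ipo7 (12.01 against 11.75) and Ipo8 (11.85 against 11.78) were close on the 2 arrays. Ipo4 and Ipo9 were the lowest of this family, and the difference of Ipo4 shrank to -0.22 under the control centring. Tnpo1, the receptor of many RNA-binding proteins, was higher by 0.44 and 0.50 on its 2 probe sets. Tnpo3, the receptor of serine/arginine-rich splicing factors, read 11.22 against 11.15 on its brightest probe set, an _s_at probe set. Its other probe sets were 2.50-fold (11.43 against 10.11) and 2.04-fold (9.64 against 8.61) higher, so the choice of probe set decided whether Tnpo3 counted as 2-fold apart.

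Kpnb1, importin beta itself, gave the largest gap of any member probe set. Its 3 brightest probe sets read 13.26 against 12.81, 12.76 against 12.80 and 12.32 against 12.46, all within 1.5-fold. The fourth, with the suffix _a_at for probes shared between transcripts of the same gene, read 8.76 in the hybridized and 3.79 in the live sample. That difference of 4.97 ranked 8 from the top among 11407 probe sets at the level. Nup133 showed the same form: beside 2 brighter probe sets that differed by 0.60 and -0.27, another read 7.34 against 4.05 and ranked 75. In both genes the live value of the dim probe set was under 5 while the brighter probe sets were not 2-fold apart. Over the members, 2 of 37 probe sets other than the brightest were at least 8-fold higher (5.41%), against 2.05% of 4145 such probe sets of all genes, and none of these members' probe sets showed an 8-fold gap at a mean of 8 or more. On the same arrays the 5' over 3' signal of the control transcripts was 2.52 higher in the hybridized sample for Actb, 1.81 for Gapdh and 0.50 for Tfrc. Whether the part of the transcript a probe set reads plays a role in these values was not tested.

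**Figure D2:**
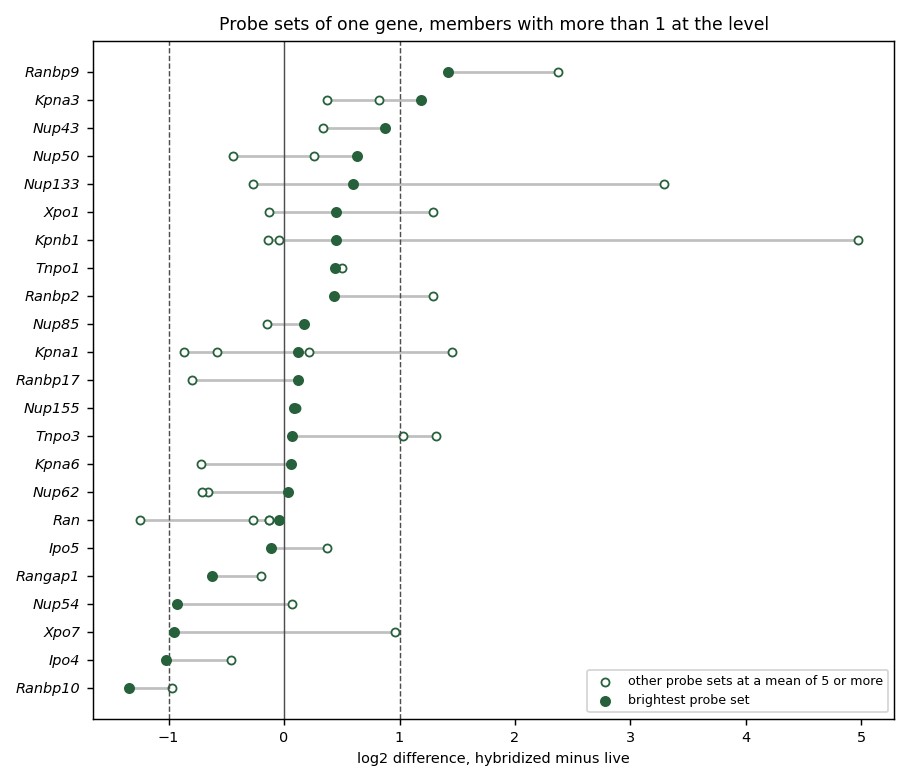
Log2 difference, hybridized minus live (x axis), of every probe set with a mean of 5 or more, for the 23 members with more than 1; filled points are the brightest probe set, open points the others, and dashed lines mark 2-fold. Ranbp9 lies wholly to the right of 1 and Ranbp10 to the left of -0.9, Xpo7 has points near -1 and near 1, and single open points of Kpnb1 and Nup133 lie far to the right.

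Exportins spread most among the receptor groups, with an SD of 1.02 over 7 genes against 0.86 over all genes and a median of 0.12. This SD leans on Xpo6 (-2.08) and on the brightest probe set of Xpo7 (-0.95). The others lay from -0.35 to 0.86. Xpo6, the exportin of actin and profilin, was the member furthest below, at 8.50 against 10.58, a 4.23-fold lower value on 1 probe set with the suffix _a_at. It stayed beyond 2-fold in the 6 other settings that give it a value, from -2.12 to -1.28. With 1 probe set, averaging probe sets and leaving out _x_at and _s_at return the same value by construction. Xpo7 pointed both ways: its brightest probe set read 11.37 against 12.32 and its second 9.41 against 8.45. Xpo5, the exportin of pre-miRNAs, was the highest at 9.38 against 8.52. Xpo1, or CRM1, the general exportin for proteins with leucine-rich signals, read 13.05 against 12.60, with -0.13 and 1.29 on its other probe sets. Carriers of proteins and of small RNAs thus lay on either side of 0. Xpot, the tRNA exportin, read 10.51 against 10.86, Xpo4 7.37 against 6.90 and Ranbp17, an exportin relative, 8.35 against 8.23. The second probe set of Ranbp17 differed by -0.80. The 212 bases of the Xpo6 promoter window outside every gene span (chr7:126200540-126200751, minus strand, GRCm38.p6) are shown because Xpo6 differed most; the capitals mark 2 GC boxes.
Xpo6: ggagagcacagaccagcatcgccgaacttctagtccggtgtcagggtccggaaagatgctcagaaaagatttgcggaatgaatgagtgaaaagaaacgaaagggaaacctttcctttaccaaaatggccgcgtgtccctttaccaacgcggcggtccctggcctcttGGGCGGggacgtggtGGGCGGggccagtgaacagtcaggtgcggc

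Both genes of the bulk mRNA export receptor lay below 0, as did the median of all genes at -0.17. Nxf1, which carries most messenger RNA out of the nucleus, read 11.33 against 11.52, and its partner Nxt1 8.71 against 9.52, each on 1 probe set. Both were under 2-fold. Centred on the median gene, Nxf1 differed by -0.02 and Nxt1 by -0.64. Under the control centring Nxf1 turned to 0.61 while Nxt1 came to -0.01.

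Ran itself read 13.88 against 13.92. Of its 4 other probe sets at the level, 3 differed by -0.13 to -0.27 and 1, an _x_at probe set, by -1.25 (12.31 against 13.56). Probe sets with that suffix may also read copies of Ran elsewhere in the genome, so that value is uncertain; the probe set with no suffix read 11.21 against 11.34. Ranbp1, which helps Rangap1 release Ran from exported cargo, was the highest of the Ran regulators at 11.85 against 11.19. Rangap1, the GTPase activator fixed to the cytoplasmic filaments, read 10.60 against 11.22 and differed by -0.20 on its second probe set. Ranbp3, a cofactor of Xpo1 export, was 2.64-fold lower at 7.94 against 9.34 on 1 probe set. Of the 4 Ran cycle genes, 3 were below 0, as were 4248 of 7262 genes at the level, and only Ranbp3 passed 2-fold. Of all genes at the level, 15.4% were 2-fold lower. Under the control centring Ranbp3 differed by -0.60, short of 2-fold, and Rangap1 turned to 0.18, while Ran changed sign in 4 of 7 other settings.

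Ranbp9 and Ranbp10 differed in opposite directions. They are paralogous scaffold proteins, also named RanBPM and its relative, that belong to the CTLH ubiquitin ligase and, despite their names, are not transport receptors. Ranbp9 read 11.95 against 10.53 on its brightest probe set, which has the suffix _x_at, and 8.39 against 6.02 on the other, which has none, so it was 2.68-fold and 5.17-fold higher. It stayed at 1.41 or more in the 7 other settings, of which both centrings can only raise it. Ranbp10 read 7.71 against 9.05 and, on its second probe set, 6.68 against 7.65, that is 2.53-fold and 1.96-fold lower. Ranbp10 differed by -0.54 under the control centring. Of the 4 members that were 2-fold apart and had a second probe set, all kept their sign on it and only Ranbp9 was 2-fold apart there too. Over all genes this held for 417 and 197 of 545. The whole promoter window of Ranbp9 lies within its RefSeq gene span, so only 30 bases of it are shown (chr13:43481024-43481053, minus strand, GRCm38.p6), where an ETS-like match runs into 2 overlapping GC boxes, all in capitals. No window was found for Ranbp10, Kpna3 or Ranbp3 in the table used here.
Ranbp9: ccgcctgCTTCCGGGGCGGGCGGactctgg

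**Figure D3:**
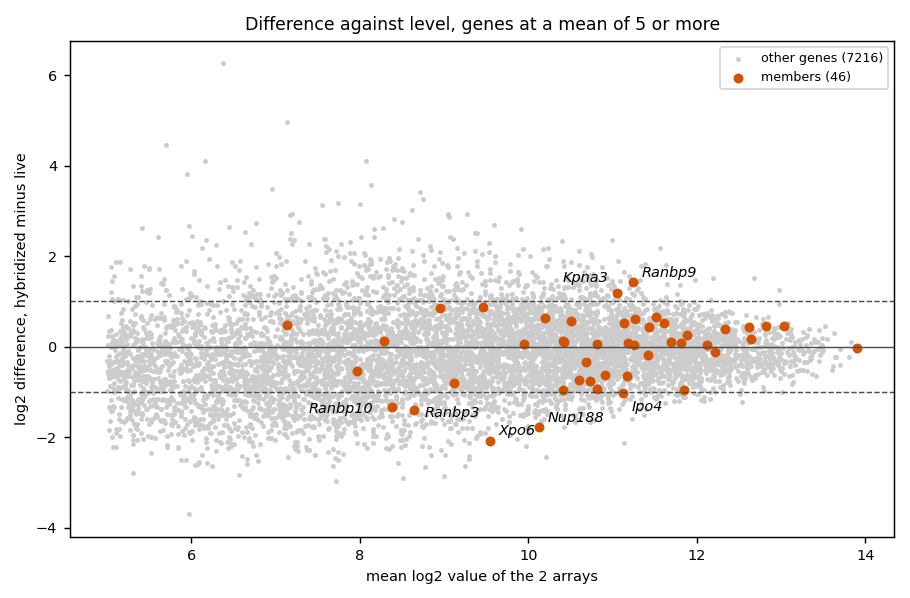
Log2 difference, hybridized minus live (y axis), against the mean log2 value (x axis) for 7262 genes at the level, with the 46 members in orange and those at least 2-fold apart named; dashed lines mark 2-fold. Ranbp9 and Kpna3 lie above the upper line and Xpo6, Nup188, Ranbp3, Ranbp10 and Ipo4 below the lower one, amid other genes of like level.

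For 23 members more than 1 probe set reached the level. The brightest and the second had the same sign in 13, or 56.5%, against 63.7% of 2720 genes, and their differences correlated across genes with r = 0.48 and rho = 0.41, where genes are not independent replicates and both values come from the same 2 arrays. In 9 of the 23, or 39.1%, the probe sets spanned at least 2-fold, against 41.8% of all such genes. The SD of the gap between the 2 probe sets, divided by the square root of 2, was 0.53 for members and 0.73 for all genes. The differences of 31 of the 46 members were smaller in size than 0.73, the spread over all genes. The share of all genes under that value was not computed, so the count marks nothing particular to the members.

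The same machinery includes genes under other names, of which 30 from a list had a probe set of their own and 29 reached the level. Of these, 5 (17.2%) were at least 2-fold higher and 3 (10.3%) lower, against 8.43% and 15.4% of all genes at the level, and the median was -0.10 against -0.17. Phax, the adaptor that takes spliceosomal snRNA to Xpo1, stood furthest at 10.49 against 7.63, a 7.26-fold higher value on 1 probe set. Thoc2, the scaffold of the THO complex, was higher by 1.15 and 1.81 on its 2 probe sets, and Chtop, an export cofactor of TREX, by 1.01 and 1.09. Both factors thus repeated on a second probe set. Ndc1, a membrane anchor of the pore, was 1.10 higher and Rae1, which binds Nup98 and mRNA, 1.07. Pcid2, of the TREX-2 complex, was the lowest at 7.14 against 8.73, but its second probe set was 1.32 higher. Alyref, the adaptor that hands mRNA to Nxf1, read 9.79 against 11.31, and Aaas, a nucleoporin also called ALADIN, 8.38 against 9.61, each on 1 probe set. Within the TREX and THO factors, then, values differed in both directions. Under the control centring 11 of the 29 (37.9%) were higher and 0 lower, where all genes had 31.8% and 2.84%.

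**Figure D4:**
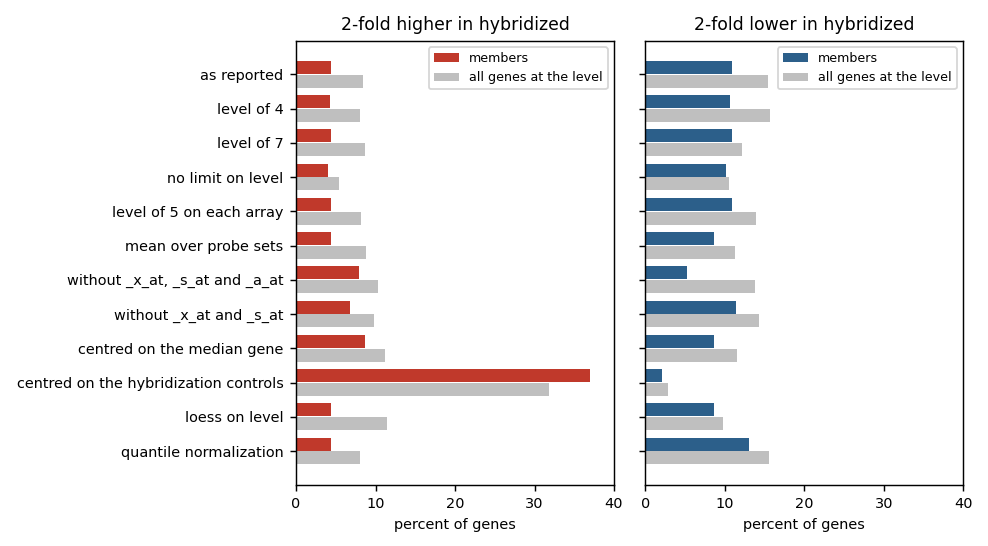
Percent of genes at least 2-fold higher (left) and lower (right) in the hybridized sample under each processing choice, for the nuclear pore and transport genes (coloured bars) and for all genes at the level (grey bars). Both sets of bars change most when centred on the hybridization controls; under loess the grey share of higher genes rises to 11.5% while the members stay at 2 of 46.

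The labelled cell type was checked on 10 pluripotency markers, all of them at the level on both arrays, from 8.79 to 13.17 in the hybridized and 8.94 to 13.14 in the live sample, with 0 of them 2-fold apart. Of 14 fibroblast markers measured, 2 reached the level, Col1a1 (4.46 in the hybridized and 6.17 in the live sample) and Col5a1 (5.43 and 7.58). Both were 2-fold lower, as were 15.4% of all genes at the level. Under the level, Col1a2 (2.38 and 2.34), Col3a1 (2.50 and 2.31) and Dcn (2.31 and 2.13) were close on the 2 arrays. Twist1 (4.15 and 5.37) and Pdgfrb (3.62 and 5.22), also under the level, were lower. Of all 14, 4 were 2-fold lower and 0 higher. The log2 values of all 14 summed to 42.2 against 51.4, a sum made mostly of values under the level. Of 10 markers of trophectoderm, endoderm and early differentiation, 3 reached the level. Of these, the keratin Krt8 was 2-fold lower at 8.40 against 9.88, and none was 2-fold higher. The keratin Krt18 went the other way at 8.01 against 7.30, and Eomes read 7.11 against 7.19. The log2 values of all 10 summed to 42.9 and 43.6. The part of these cell types in the differences above was not tested. In bulk samples fewer cells of a type and less RNA per cell cannot be told apart.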

How the data were processed

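RNA of mouse iPSCs, amplified by NuGEN Ovation and carrying biotin per the labels' protocols, was read on 1 array per group. The authors deposited a log2 value per probe set; GCRMA and affy are the tools in the submitters' processing notes, with versions and order not given in the sources used here. The log base was inferred from the method and the range of 1.02 to 14.24. GCRMA corrects for probe base composition, so low values are compressed. Of 22690 probe sets, 64 were controls, 20380 named 1 gene in the platform table, 691 several and 1555 none here; the last groups were left out.

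The brightest probe set stood for a gene, at a mean log2 of 5 or more, and 2-fold is a difference of 1. No test was made, since the number of arrays allows none. All members were named by role, with values for those 2-fold apart, highest or lowest in their role, or with a second probe set; others served as examples. The members and lists were chosen with earlier results of these data known. Promoter windows are RefSeq's (GRCm38.p6); 40 of 49 members matched. The files name no build. Alternatives were other levels (4, 7, none, each array), probe set choices, centring, loess (span 0.3), quantile normalization and folds of 1.5 and 4. The procedure was tested on simulated data. Python 3.11.15, numpy 2.4.6, pandas 2.3.3, statsmodels 0.14.6 and matplotlib 3.10.9 were used.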

Additional observations from a re-analysis of the deposited data

How the results depend on the processing

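As deposited, 2 members were 2-fold higher (4.35%) and 5 lower (10.9%), against 8.43% and 15.4% of all genes. Their median difference was 0.07. Leaving out _x_at, _s_at and _a_at probe sets gave 2 lower of 38 members left (5.26%, against 13.8% of all genes). Centring on the median gene gave 4 higher (8.70%, against 11.2% of all genes) and a median of 0.24. Centring on the hybridization controls gave 17 higher (37.0%), 1 lower (2.17%) and a median of 0.87. Of all genes, 31.8% were then higher and 2.84% lower, with a median of 0.63. A 1.5-fold limit gave 7 higher (15.2%) and 13 lower (28.3%), against 17.5% and 29.9% of all genes, and a 4-fold limit 0 and 1, against 1.20% and 1.56%. The other levels, the mean over probe sets, loess and quantile normalization, and leaving out only _x_at and _s_at, moved no member count by over 1.5 times.

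For the pathway genes under other names (5 higher, 3 lower, median -0.10), the mean over probe sets gave a median of 0.02. Leaving out _x_at and _s_at gave 8 of 29 higher (27.6%, against 9.78% of all genes) and a median of 0.17. Median centring gave 8 higher (27.6%, against 11.2%) and 0.07. Control centring gave 11 higher (37.9%, against 31.8%), 0 lower (against 2.84%) and 0.70. The 1.5-fold limit gave 8 higher (27.6%) and 6 lower (20.7%), against 17.5% and 29.9% of all genes. The 4-fold limit gave 1 (3.45%) and 0, against 1.20% and 1.56%. Over single genes, 67 of the alternative values moved by more than the 0.73 spread between probe sets and 298 by less. Much of this tally is arithmetic. Control centring adds 0.80 to every difference, so each gene counts as moved, and median centring adds 0.17, so none does. The other moves were of Kpnb1, Ndc1, Nup54, Pcid2, Ranbp9, Tnpo3 and Xpo7. No gene that was 2-fold apart changed sign. Beyond the settings' own construction the causes were not tested. No paired analysis was possible because each group has 1 sample.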

Other observations

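A probe set shared by Ipo4 and its neighbour Tm9sf1, left out above, read 8.96 in the hybridized and 9.99 in the live sample, a difference of -1.03 beside -1.02 on the brightest probe set of Ipo4. One shared by Xpo4 and Lats2 read 4.67 against 5.27, whereas the probe set of Xpo4 alone was 0.47 higher. Another probe set of Nup54, with a mean under 5, read 5.69 against 3.62. For Senp2, the SUMO protease of the nuclear pore, the brightest probe set was 0.49 higher and the others 1.55 and 1.97; for Nupl1, or Nup58, a channel protein beside Nup54 and Nup62, the brightest differed by -0.70 and the others by 1.47, 0.48 and 0.83.

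Among 37 members with a promoter window, the difference and the window's GC content correlated across genes with r = 0.25 and rho = 0.26, against -0.05 and -0.04 over 5999 genes at the level. With the genomic span of the gene the values were r = 0.00 and rho = 0.02 over 46 members, and 0.12 and 0.13 over 7253 genes. All points share the same 2 arrays, and members are not independent replicates.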
